A study of Mus musculus with 15 samples.

Results

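The chloride cotransporters and channels described here are 5 genes, *Slc12a2*, *Slc12a5*, *Slc12a7*, *Clcn2* and *Clcn3*, taken from the 38561 gene rows of the count files by the Ensembl identifiers that carry these symbols in GENCODE M21. RNA-seq was performed on Purkinje cells (PCs) that were laser-captured from the cerebellum of male mice (strain written as C56/BL6 in the sample labels and as C57/BL6 in the study's methods) at postnatal days 0, 4, 8, 14 and 21 (P0, P4, P8, P14 and P21). Each of the 5 time points had 3 biological replicates, 15 samples in all, and no treatment or genetic change separated them. From P4 to P21 single PC somata were collected, whereas at P0 clusters of PCs were cut out, so the youngest samples differed from the others in capture as well as in age. The RNA was turned into cDNA with a kit for ultra-low input. The question addressed was how the RNA of these genes developed while PCs matured, and how the balance of *Slc12a5* to *Slc12a2* moved in each sample.

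The chloride level inside a neuron sets whether GABA, the main inhibitory transmitter, lets chloride in or out. NKCC1, encoded by *Slc12a2*, carries sodium, potassium and chloride into the cell, whereas KCC2, encoded by *Slc12a5* and made mainly by neurons, uses the potassium gradient to carry chloride out. A low KCC2 level with NKCC1 present is the classic state of immature neurons, in which GABA can depolarize. *Slc12a7* encodes KCC4, a potassium-chloride cotransporter that is also found outside neurons. ClC-2, encoded by *Clcn2*, is a chloride channel of the plasma membrane, and ClC-3, encoded by *Clcn3*, is a chloride-proton exchanger of endosomes and synaptic vesicles.

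The promoters of *Slc12a5*, the 1 gene of the 5 that rose with age, and of *Clcn3*, which was the highest at P0, are shown. Only these 2 of the 5 genes were looked up in the RefSeq promoter table. Each window holds the 250 bases before a RefSeq start site on GRCm38.p6, read 5′ to 3′ on the strand of the gene. The first *Slc12a5* window is chr2:164960596-164960845 on the plus strand, the second is chr2:164967738-164967987 on the plus strand, and the *Clcn3* window is chr8:60983312-60983561 on the minus strand. Capitals mark the motif letters found on either strand, so a match on the opposite strand appears as its reverse complement.
Slc12a5 start 1: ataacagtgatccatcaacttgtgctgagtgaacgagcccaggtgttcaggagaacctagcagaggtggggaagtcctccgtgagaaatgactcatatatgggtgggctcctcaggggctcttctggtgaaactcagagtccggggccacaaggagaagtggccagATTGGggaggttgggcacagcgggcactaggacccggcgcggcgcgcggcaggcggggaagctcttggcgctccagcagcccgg
Slc12a5 start 2: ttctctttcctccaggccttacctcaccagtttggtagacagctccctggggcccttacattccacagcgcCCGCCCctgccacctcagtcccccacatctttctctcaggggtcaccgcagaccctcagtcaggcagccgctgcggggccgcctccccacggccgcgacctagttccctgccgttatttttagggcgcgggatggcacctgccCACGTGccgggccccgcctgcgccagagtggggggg
Clcn3 start 1: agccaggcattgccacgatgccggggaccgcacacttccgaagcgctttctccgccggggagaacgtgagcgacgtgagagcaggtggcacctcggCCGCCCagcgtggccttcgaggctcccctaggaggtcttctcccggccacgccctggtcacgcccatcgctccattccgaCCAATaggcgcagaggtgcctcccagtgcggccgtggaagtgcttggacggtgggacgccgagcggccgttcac

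The motifs searched on both strands were the E-box CACGTG, the CCAAT box CCAAT, the GC box GGGCGG, the cAMP response element core TGACG and the EGR core GCGNGGGCG. Of 32851 windows of this length upstream of RefSeq start sites, 6.02% held the E-box, 33.9% the CCAAT box, 32.7% the GC box, 17.8% the cAMP response element core and 4.70% the EGR core. The first *Slc12a5* window held a CCAAT box from base -84 to -80 relative to the start. The second held an E-box from -36 to -31 and a GC box from -179 to -174, and the *Clcn3* window held a CCAAT box from -74 to -70 and a GC box from -154 to -149. Their GC contents were 61.2%, 67.2% and 68.4%, against quartiles of 45.2%, 52.4% and 61.2% over all windows. A second *Clcn3* window, chr8:60954800-60955049, had a GC content of 39.2% and held none of these letters. The counts are per gene and do not separate the starts of *Slc12a5*.

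On GRCm38, *Slc12a5* (ENSMUSG00000017740) lies at chr2:164960802-164999731 on the plus strand, *Slc12a2* (ENSMUSG00000024597) at chr18:57878678-57946821 on the plus strand and *Slc12a7* (ENSMUSG00000017756) at chr13:73733094-73816754 on the plus strand. *Clcn2* (ENSMUSG00000022843) lies at chr16:20702964-20717746 and *Clcn3* (ENSMUSG00000004319) at chr8:60910389-60983300, both on the minus strand. All 5 are protein-coding, and the counts are summed over the exons of each gene. *Clcn2* shares 82 exonic bases with *Polr2h* and 85 with *Fam131a*, both on the opposite strand, so its counts could be affected at these ends by how the counting treated strand. The other 4 genes share no exonic base with another gene.

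Total counts on genes ranged from 3409371 to 7814951 per sample (median 5345170), and 14293 genes were tested. Expression is given as CPM, which is counts per effective library size after TMM normalization, and where genes are compared with each other as RPKM, CPM per kilobase of merged exons. A count of 0 allows up to 3 counts, which is 0.384 to 0.880 CPM depending on the sample and covers counting error only. The 6 PC markers were detected at every time point, and their summed level increased from 5340 ± 737 CPM at P0 to 42941 ± 5287 CPM at P21 (mean ± SD, n = 3), 8.04-fold. *Ppp1r17* had a mean of only 0.988 CPM at P0. The 9 markers of Bergmann glia and astrocytes summed to 3974 to 5862 CPM at P21 and 4152 to 5753 CPM at P0, with their highest mean of 9333 CPM at P8, so the glial sum at P0 was close to the PC sum. In these bulk samples, fewer cells of a type and less RNA per cell cannot be told apart.

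*Slc12a5* rose with postnatal day. Its expression was 41.2, 101.6 and 39.3 CPM in P0 replicates 1, 2 and 3, and 65.0, 99.5 and 52.3 CPM at P4. It was 163, 194 and 197 CPM at P8, and 419, 276 and 401 CPM at P14. At P21 it reached 592, 610 and 440 CPM. The P0 and P4 samples overlapped, whereas from P4 onward every sample of a time point lay above every sample of the preceding one. The mean was 9.02-fold higher at P21 (547 ± 93.2 CPM) than at P0 (60.7 ± 35.4 CPM).

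The slope of *Slc12a5* was 0.16 ± 0.017 log2 units per day (± SE; adjusted p = 9.5e-07, edgeR quasi-likelihood test with Benjamini-Hochberg adjustment over all genes tested). Tested with the time point as a factor, which asks for any change, it was the 1 of 5 members to pass (adjusted p = 8.11e-06, edgeR), as did 19.3% of all genes. It was the 1 member that rose by the trend test, where 12.1% of all genes rose, and 1 of 5 members fell, where 14.1% of all genes fell. In either direction 2 of the 5 passed, beside 26.2% of all genes. All 6 samples of P14 and P21 lay above all 6 of P0 and P4 for *Slc12a5* alone among the members, a separation seen upward in 8.24% of all genes.

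The single steps of *Slc12a5* from one time point to the next did not pass their own tests. From P4 to P8 the difference was 1.35 ± 0.33 log2 units (adjusted p = 0.0695, edgeR), from P8 to P14 it was 0.98 ± 0.33 (adjusted p = 0.149, edgeR), and from P14 to P21 it was 0.58 ± 0.33 (adjusted p = 0.795, edgeR). None of the 20 member steps passed the threshold of 0.05 in edgeR's test, which 1.97% of all genes passed from P0 to P4, 1.13% from P4 to P8, 2.67% from P8 to P14 and 0.329% from P14 to P21. The first 2 of the steps given above were the only 2 of the 20 with an unadjusted p below 0.05, a share of 14.9%, 11.8%, 13.4% and 7.02% of all genes in the 4 intervals. The P4 to P8 step passed when P0 replicate 2, P0 replicate 3 or P4 replicate 2 was left out (adjusted p = 0.00971, 0.0448 and 0.0486, edgeR), and the P8 to P14 step passed without P0 replicate 2 (adjusted p = 0.0386, edgeR). The groups did not overlap in 4 of the 20 steps, the 3 of *Slc12a5* and the last of *Clcn3*, against 15.2% of all genes from P0 to P4, 17.6% from P4 to P8, 25.5% from P8 to P14 and 16.6% from P14 to P21.

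The PC markers moved in the same direction as *Slc12a5*. Set against the summed PC markers of the same sample, *Slc12a5* CPM made up 1.11 ± 0.516% at P0 and 0.542 ± 0.038% at P4. The share was 0.961 ± 0.050% at P8, then 1.07 ± 0.150% and 1.27 ± 0.066% at P14 and P21. Relative to these markers the gene was thus lowest at P4, with no overlap with any other time point, and its values at P0 and P21 overlapped. The 6 oligodendrocyte lineage markers summed to 18.3 to 38.9 CPM at P0, with *Mag* and *Mobp* at 0, and to 396 to 850 CPM at P21. Of the 6, 5 rose with day by edgeR's trend test, and *Pdgfra*, with 2.88 CPM at P0 and 2.43 CPM at P21, did not pass. The part of either list in the *Slc12a5* result was not tested.

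**Figure D1:**
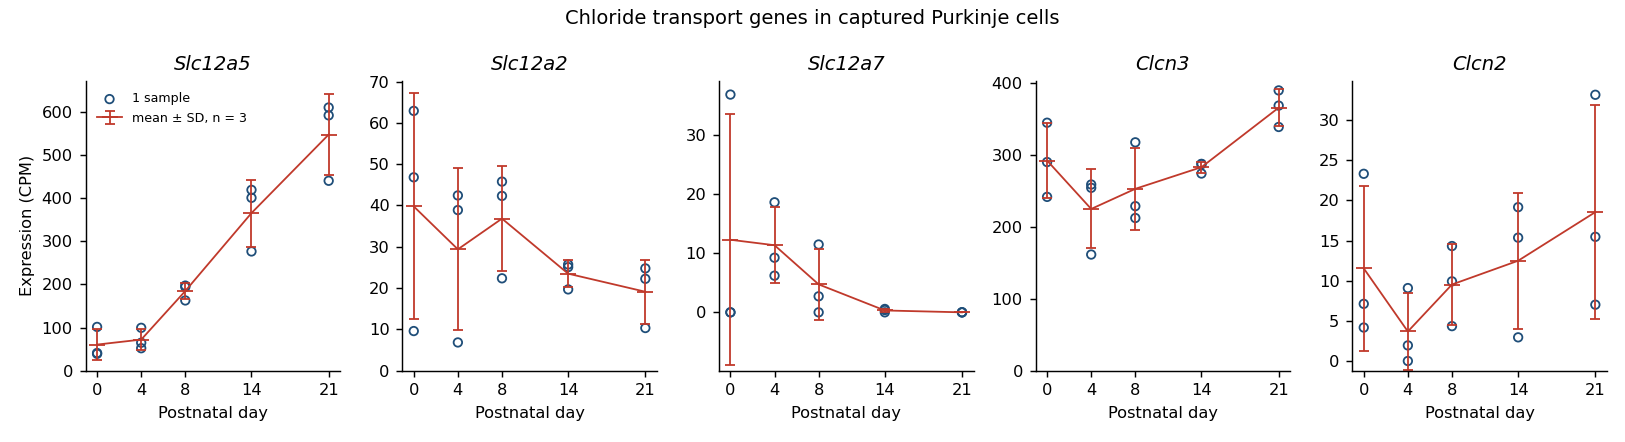
Expression of the 5 genes (CPM, linear axes of differing range) against postnatal day, with 1 open circle per sample and bars for the mean ± SD of 3 samples. *Slc12a5* climbed from 60.7 to 547 CPM on average, the time point means of *Clcn3* lay between 225 and 365 CPM, and *Slc12a7* was at 0 in all 3 P21 samples.

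*Slc12a2*, the importer, did not pass either test. Its expression was 9.62, 62.9 and 46.8 CPM at P0, and 42.4, 6.86 and 38.9 CPM at P4. It was 22.4, 45.8 and 42.3 CPM at P8, and 19.7, 25.1 and 25.7 CPM at P14. At P21 it was 10.3, 24.8 and 22.3 CPM. P0 replicate 1, P4 replicate 2 and P21 replicate 1 lay well below the other samples of their time points, and every pair of neighbouring time points overlapped.

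The mean of *Slc12a2* was 39.8 ± 27.3 CPM at P0 and 19.1 ± 7.71 CPM at P21, a ratio of 0.481. The slope was -0.048 ± 0.028 log2 units per day (adjusted p = 0.225, edgeR), and the test for any change gave an adjusted p of 0.715 (edgeR). The spread within time points, an SD of 68.7% of the mean at P0 and 66.7% at P4, was as large as this difference. Set against the summed PC markers, *Slc12a2* CPM was 0.211 to 1.05% at P0 and 0.0228 to 0.0603% at P21, with no overlap, while the marker sum itself was 8.04-fold higher.

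The ratio of *Slc12a5* to *Slc12a2* in the same sample does not depend on library size, but it is not corrected for the mix of cells captured. On the RPKM scale it was 6.28, 2.37 and 1.23 in the P0 replicates, and 2.25, 21.3 and 1.97 at P4. It was 10.7, 6.22 and 6.84 at P8, and 31.2, 16.2 and 22.8 at P14. At P21 it was 83.8, 36.1 and 29.0. P4 replicate 2 stood with the P14 samples, through its low *Slc12a2* count of 53 beside 769 for *Slc12a5*, and P0 replicate 1 likewise had the highest ratio of its group with 50 counts of *Slc12a2*. In P4 replicates 1, 2 and 3 the PC marker sum was 11720, 17387 and 10469 CPM, and the glial sum 9364, 7551 and 5431 CPM. In the P0 replicates the PC sum was 4549, 6007 and 5465 CPM, and the glial sum 4706, 4152 and 5753 CPM. The part of either list in the ratio was not tested.

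The geometric mean of the ratio was 2.64 at P0 and 4.55 at P4, and it was 7.69, 22.6 and 44.4 at the 3 later ages. On the log2 scale this was 1.40 ± 1.18, 2.19 ± 1.93, 2.94 ± 0.42, 4.50 ± 0.47 and 5.47 ± 0.81 (mean ± SD, n = 3). Without P4 replicate 2 the P4 value was 2.10, below that of P0, and without P4 replicate 3 it was 6.91, while without P0 replicate 1 the P0 value was 1.71. The order of P0 and P4 thus rested on 1 sample. P21 replicate 1 had 31 counts of *Slc12a2*, the fewest of the 15 samples. Without it the P21 value was 32.3, and without P21 replicate 3 it was 55.0. P8 to P14 was the only interval in which every sample of the later time point lay above every sample of the earlier one, and the P14 and P21 samples overlapped. Over the 15 samples the log2 ratio followed postnatal day, with Pearson's r = 0.850 (p = 0.00013) and Spearman's rho = 0.851 (p = 0.00012) in two-sided permutation tests, each with an adjusted p of 0.00013 over the 2 coefficients. Leaving out P21 replicates 1 and 2, among the samples farthest from the median day, gave r = 0.785 (p = 0.0016, permutation test). The labels name no sequencing batch, so the relation could not be split by one.

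The size of the ratio depended on the gene length used. Another length multiplies the ratio of every sample by the same factor, so its course over age cannot change. As a ratio of counts the geometric mean went from 1.80 at P0 to 30.3 at P21, and with the longest coding transcript of each gene from 1.94 to 32.8. At the P0 end, P0 replicate 3 had fewer counts of *Slc12a5* (194) than of *Slc12a2* (231), the one sample of 15 in which this was so.

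**Figure D2:**
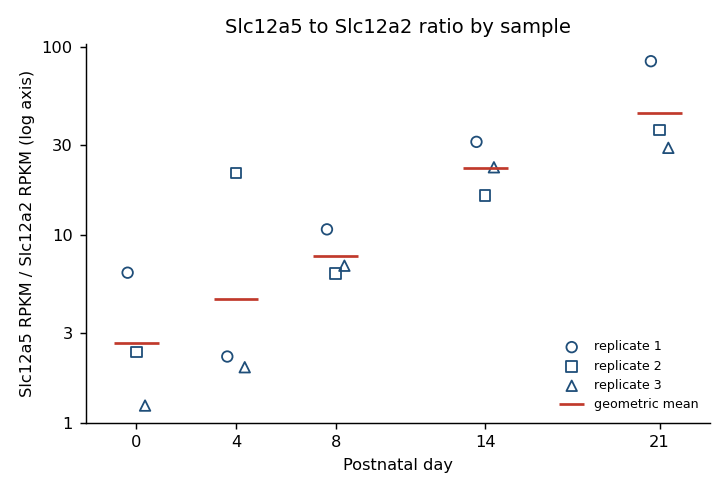
Ratio of *Slc12a5* RPKM to *Slc12a2* RPKM in each of the 15 samples (log axis) against postnatal day, with symbols for replicates 1 to 3 and a line for the geometric mean of each time point. The geometric mean climbed from 2.64 at P0 to 44.4 at P21 (32.3 without P21 replicate 1), and P4 replicate 2 at 21.3 lay far above the other P4 samples.

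*Slc12a7*, encoding the potassium-chloride cotransporter KCC4, fell with day. It was at 0 in P0 replicates 1 and 2 and at 36.9 CPM (182 counts) in P0 replicate 3, and at 18.6, 6.21 and 9.25 CPM at P4. It was 11.5, 0 and 2.71 CPM at P8 and 0, 0.575 and 0.384 CPM at P14, where the last 2 values are 3 and 2 counts. All 3 P21 samples were at 0. P4 was thus the one time point at which every sample held the transcript, and 7 of the 15 samples held none.

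The slope of *Slc12a7* was -0.42 ± 0.11 log2 units per day (adjusted p = 0.00992, edgeR), which depends on how a group at 0 is fitted and is no bound. Pooled over samples, P4 held 178 counts and P21 none. With 3 counts over the whole P21 group taken as the floor, the pooled P4 level was 47.0-fold above that floor. The floor covers counting error at P21 only and not the spread between samples. The test for any change did not pass (adjusted p = 0.145, edgeR), but did without P0 replicate 3 (adjusted p = 0.0317, edgeR). The trend was not called by limma-voom (-0.18, adjusted p = 0.214) or with day on a logarithmic scale (adjusted p = 0.119, edgeR).

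Vascular and choroid plexus marker sums had lower means at P21 than at P0. The 3 vascular markers summed to 33.5 to 121 CPM at P0 and 16.0 to 35.4 CPM at P21, with none at 0 throughout a group. Of these, *Pecam1* fell (adjusted p = 0.00574, edgeR), whereas *Cldn5* (adjusted p = 0.136, edgeR) and *Flt1*, with 9.90 CPM at P0 and 16.0 CPM at P21 (adjusted p = 0.662, edgeR), did not pass. The 3 choroid plexus markers summed to 5.96 to 31.7 CPM at P0 and 0 to 1.34 CPM at P21, with *Folr1* and *Kl* at 0 in all P0 samples, so the P0 level was that of *Ttr* alone. In P0 replicates 1, 2 and 3 the vascular sum was 121, 33.5 and 73.4 CPM. The choroid plexus sum was 5.96, 31.7 and 23.7 CPM. P0 replicate 3, which held *Slc12a7*, had the highest P0 sums of glial (5753 CPM), oligodendrocyte lineage (38.9 CPM) and microglia (7.90 CPM) markers. Its sum of basket, stellate and Golgi cell markers was the lowest (6.08 CPM), and its granule neuron sum (299 CPM) lay between the others. At P4 and P8 the vascular sum averaged 35.8 and 55.5 CPM and the choroid plexus sum 5.62 and 1.87 CPM. *Slc12a7* averaged 11.4 and 4.73 CPM at these ages. In P4 replicate 2, with 6.21 CPM of *Slc12a7*, the choroid plexus sum was 0. The part of these lists in the *Slc12a7* result was not tested.

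*Clcn2*, the plasma membrane chloride channel, was low and scattered. Its expression was 7.12, 4.17 and 23.3 CPM at P0, and 0, 1.94 and 9.08 CPM at P4. It was 14.3, 9.92 and 4.34 CPM at P8, and 2.95, 19.2 and 15.4 CPM at P14. At P21 it was 7.01, 15.5 and 33.1 CPM. Every pair of time points overlapped, and the 3 P21 values alone spanned most of the range of the whole course.

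The slope of *Clcn2* was 0.052 ± 0.045 log2 units per day (adjusted p = 0.433, edgeR) and the test for any change gave an adjusted p of 0.654 (edgeR). The mean at P21 was 1.61 times that at P0, 18.5 ± 13.3 against 11.5 ± 10.3 CPM. Counts were 0 to 207 per sample.

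*Clcn3*, the endosomal exchanger, was well expressed at every age and did not pass either test. Its expression was 344, 241 and 290 CPM at P0, and 161, 259 and 254 CPM at P4. It was 229, 317 and 212 CPM at P8, and 287, 274 and 287 CPM at P14. At P21 it was 368, 389 and 339 CPM. All P21 samples lay above all P14 samples, but P0 replicate 1 lay above P21 replicate 3.

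The mean of *Clcn3* was lowest at P4 (225 ± 54.9 CPM) and highest at P21 (365 ± 25.5 CPM), 1.63-fold apart, and the P21 to P0 ratio was 1.25. The slope was 0.021 ± 0.010 log2 units per day (adjusted p = 0.143, edgeR) and the test for any change gave an adjusted p of 0.153 (edgeR). Without P0, whose samples were captured as clusters, the slope was 0.042 (adjusted p = 0.0151, edgeR), and the DESeq2 likelihood ratio test of any change gave an adjusted p of 0.0339. Set against the summed PC markers, *Clcn3* CPM went from 5.63 ± 1.80% at P0 to 0.855 ± 0.055% at P21, opposite to its CPM.

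Compared per length, *Clcn3* and *Slc12a5* exchanged the first 2 places in the order of the 5 genes between P0 and P21. At P0 the mean RPKM was 17.1 for *Clcn3*, 8.15 for *Slc12a5*, 3.64 for *Slc12a2*, 1.91 for *Clcn2* and 0.971 for *Slc12a7*. At P0 only *Clcn3* stood above its neighbour in the order without overlap, and the other neighbours overlapped. At P21 the mean RPKM was 73.5 for *Slc12a5*, 21.4 for *Clcn3*, 3.08 for *Clcn2*, 1.75 for *Slc12a2* and 0 for *Slc12a7*. There only *Clcn2* and *Slc12a2* overlapped.

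*Slc12a5* stood above *Clcn3* in every sample from P8 on with merged exon lengths (24.8 ± 2.56 against 14.8 ± 3.31 RPKM at P8). This crossing depends on the length used, since the merged exons of *Clcn3* span 17071 bases and its longest coding transcript 5684. With the longest coding transcript, the mean of *Clcn3* was ahead at P8 (44.5 ± 9.94 against 30.7 ± 3.16 RPKM). The mean of *Slc12a5* led from P14 (60.6 ± 12.9 against 49.7 ± 1.35 RPKM there). With this length the order is one of means and not of every sample.

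Among the CLC genes *Clcn2* to *Clcn7*, *Clcn4*, a close relative of *Clcn3* that is also an intracellular exchanger, had the highest share of the summed RPKM at each time point, 54.1 ± 5.16% at P0 and 40.3 ± 4.30% at P21 (mean ± SD, n = 3). *Clcn3* held 24.7 ± 6.61% at P0 and 18.0 ± 4.39% at P4. Its share was 23.0 ± 4.55% at P8 and 23.3 ± 0.957% at P14, and reached 28.8 ± 0.796% at P21. *Clcn2* held 2.46% at P0 and 4.20% at P21. With longest coding transcripts the *Clcn3* share was 36.3% at P0 and 42.8% at P21, and at P21 it exceeded that of *Clcn4* (37.1%).

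**Figure D3:**
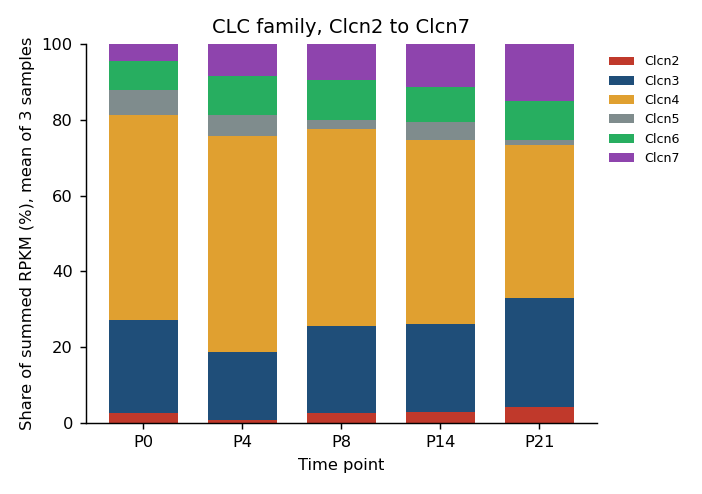
Mean share of the summed RPKM (%, 3 samples per time point) held by each of the genes *Clcn2* to *Clcn7* at the 5 time points, as stacked bars with merged exon lengths. *Clcn4* held 54.1% at P0 and 40.3% at P21, and *Clcn3* 24.7% and 28.8%.

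Beyond the 5 members, 42 further genes of chloride and bicarbonate transport were listed by role, and 34 were tested. Of these, 9 rose (26.5%, beside 12.1% of all genes), 4 fell (11.8%, beside 14.1%) and 10 passed the test for any change (29.4%, beside 19.3%). The median slope of the 34 was 0.019 log2 units per day, against -0.0077 over all genes. *Bsnd*, *Lrrc8e*, *Ano2* and *Best2* had no count in any sample.

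Of the 3 cation-chloride cotransporters tested, 1 rose and none fell, beside 12.1% and 14.1% of all genes. This was *Slc12a8*, a divergent member of the family, which went from 0.705 ± 1.22 CPM at P0 to 81.8 ± 2.08 CPM at P21 (slope 0.25, adjusted p = 0.0114, edgeR). Without P0 its slope was 0.14 (adjusted p = 0.0678, edgeR).

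Of the 7 CLC genes and subunits tested, 2 rose and 1 fell, beside 12.1% and 14.1% of all genes. *Clcn7*, the lysosomal exchanger, rose from 18.1 ± 16.9 to 59.9 ± 22.8 CPM (slope 0.071, adjusted p = 0.0257, edgeR). *Hepacam*, a glial adhesion protein that binds ClC-2, rose from 10.8 ± 9.03 to 73.4 ± 24.3 CPM (slope 0.13, adjusted p = 0.00169, edgeR). *Clcn5*, an endosomal exchanger, fell from 50.9 ± 30.4 to 12.3 ± 4.05 CPM (slope -0.078, adjusted p = 0.0431, edgeR). The *Clcn7* call was lost without P0 replicate 2 (slope 0.061, adjusted p = 0.0587, edgeR) and without P21 replicate 2 (0.059, adjusted p = 0.119, edgeR). The *Clcn5* call was lost in 8 of the 15 fits that left out a sample, with adjusted p of up to 0.142 (edgeR) without P0 replicate 2. It was also lost with limma-voom (adjusted p = 0.0933), and with edgeR on log2(day + 1) (adjusted p = 0.0778) and without P0 (adjusted p = 0.161).

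Of the 8 kinases and adaptors that act on the cotransporters, 2 rose and none fell, beside 12.1% and 14.1% of all genes. WNK kinases activate SPAK and OSR1, which phosphorylate the cotransporters, an action that raises NKCC1 activity and lowers that of KCC2. *Wnk2* rose from 58.2 ± 26.0 CPM at P0 to 163 ± 14.3 CPM at P21 (slope 0.075, adjusted p = 0.001, edgeR), and *Stk39*, encoding SPAK, from 23.7 ± 5.46 to 59.8 ± 17.4 CPM (slope 0.062, adjusted p = 0.00589, edgeR). *Oxsr1*, encoding OSR1, had a slope of 0.023 (adjusted p = 0.584, edgeR).

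Of the 6 anion exchangers and bicarbonate transporters tested, 2 rose and 1 fell, beside 12.1% and 14.1% of all genes. *Slc4a10*, a sodium-driven bicarbonate transporter of neurons, rose from 115 ± 18.6 to 310 ± 50.8 CPM (slope 0.083, adjusted p = 1.35e-04, edgeR). *Slc4a4*, a sodium-bicarbonate cotransporter with strong expression in astrocytes, rose from 37.8 ± 15.03 to 348 ± 83.9 CPM with its highest mean of 492 CPM at P14 (slope 0.14, adjusted p = 0.0107, edgeR). *Slc4a7* fell from 64.2 ± 35.4 to 24.3 ± 7.53 CPM (slope -0.071, adjusted p = 0.00914, edgeR). Without P0 the calls of *Slc4a4* (slope 0.059, adjusted p = 0.193, edgeR) and *Slc4a7* (slope -0.062, adjusted p = 0.0512, edgeR) were lost. *Slc4a8* passed the test for any change (adjusted p = 0.044, edgeR) and not the trend test on days, although its trend passed on log2(day + 1) (-0.28, adjusted p = 0.0447, edgeR), with 73.1 ± 30.4 CPM at P0 and means of 21.9 to 37.4 CPM later.

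Of the 10 volume-regulated and calcium-activated anion channel genes tested, 2 rose and 2 fell, beside 12.1% and 14.1% of all genes. *Lrrc8a*, the obligatory subunit of the volume-regulated anion channel, rose from 240.2 ± 78.6 to 524 ± 93.6 CPM (slope 0.063, adjusted p = 2.58e-04, edgeR), and *Ttyh1* from 138 ± 24.7 to 527 ± 57.8 CPM (slope 0.097, adjusted p = 3.49e-05, edgeR). *Ano1*, a calcium-activated chloride channel, had 21.4 ± 16.7 CPM at P0 and was at 0 at P21 (adjusted p = 0.00105, edgeR). *Best1* had 5.70 ± 7.24 CPM at P0 and was at 0 at P8 and P21 (adjusted p = 0.00484, edgeR), a call that limma-voom did not make (adjusted p = 0.14). Over all samples *Ano1* had 541 counts and *Best1* 113. As for *Slc12a7*, their slopes depend on how groups at 0 are fitted and are no bounds.

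*Hepacam* and *Slc4a4* are also expressed by glia, whose markers did not move together. Of the 9, *Sept4*, *Slc1a3*, *Slc1a2*, *Gja1* and *Hopx* rose with day and *Aldh1l1* and *Fabp7* fell, with *Fabp7* at 2687 CPM at P0 and 186 CPM at P21. Whether they bear on *Hepacam* or *Slc4a4* was not tested.

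**Figure D4:**
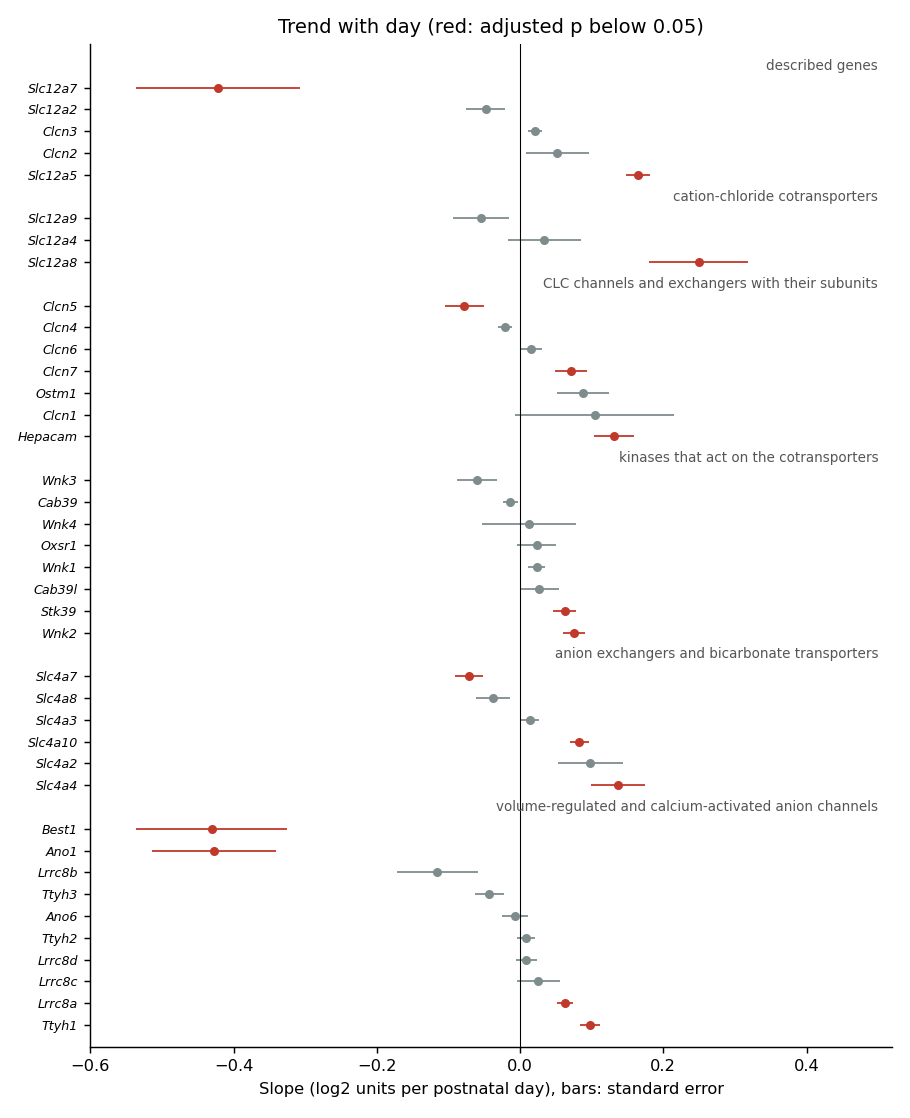
Slope with postnatal day (log2 units per day, bars for the standard error) of the 5 members and of the 34 further genes tested, grouped by list, with red for an adjusted p below 0.05 (edgeR) and grey for the others. *Slc12a5* lay at 0.16 with a short bar, whereas the falling genes *Slc12a7*, *Ano1* and *Best1* lay near -0.42 with long bars and each ended at 0 counts at P21.

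By the shape of expression over the 15 samples (Pearson's r of log2 CPM among 9732 genes with a mean of at least 10 CPM), genes very like *Slc12a5* were *Nptx1* (r = 0.979) and *Nptxr* (r = 0.976). The 3 most like *Clcn3* were *Miga2* (r = 0.902), *Chrnb2* (r = 0.891) and *Sos2* (r = 0.881). For *Slc12a2* they were *Hexdc* (r = 0.885), *Cacna1d* (r = 0.841) and *Map2k3* (r = 0.817). For *Slc12a7* the nearest was *Gt(ROSA)26Sor* (r = 0.868) and for *Clcn2* it was *Gnpat* (r = 0.802). These values are descriptions, since all genes share the samples, their age and their depth.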

How the data were processed

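RNA from laser-captured PCs was sequenced by the authors as paired-end libraries. Per the submitters' processing notes and the study's methods, reads were trimmed with cutadapt 1.2.1, aligned to GRCm38 with GSNAP, and uniquely mapping reads were counted per Ensembl gene with HTSeq 0.5.3p9. What the authors deposited is the raw count of each gene as a whole number, 1 library per sample, with no scaling. The annotation release used for counting is not given in the sources used here. HTSeq's tallies of reads outside genes or ambiguous, 18.2 to 31.0% of counted reads, were kept out.

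Samples were grouped by the age in their labels. Genes were tested with edgeR 4.0.16 (R 4.3.3) by its quasi-likelihood F test (TMM, filterByExpr by time point, Benjamini-Hochberg over all 14293 genes tested, threshold 0.05), with postnatal day as a number, and with the time point as a factor for any change and for the 4 neighbouring steps. The common biological coefficient of variation was 0.757 in the day fit. The ratio was tested with 100000 permutations in Python 3.11.15 with scipy 1.17.1. Names and exon lengths came from GENCODE M21, promoters from RefSeq. RPKM was computed from CPM and merged exon length. Alternatives used DESeq2 1.42.0, limma 3.58.1, other filters and scales of day, a replicate block, omission of P0, and omission of each sample. The scripts were tested on simulated data.

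All 5 members were described in full, and other transport genes were named where they passed a test, at most the 4 of each list with the highest mean CPM. *Oxsr1* and *Clcn4* were added to these after their values were seen. A few genes of the lists or picked by their likeness to a member are not reported here, and the counts over the lists leave them out. The members and lists were chosen with earlier results of these data known. Replicates of a time point differed by a chi-square statistic per gene of 19.3 to 59.5, so none was a duplicate. Same-numbered samples of different ages did not deviate together (mean r of -0.0033, against 0.0017 for different numbers), so the numbers were not taken as pairs.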

Additional observations from a re-analysis of the deposited data

How the results depend on the processing

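The spread between 3 samples per time point, and for *Slc12a7* and *Clcn2* also their low counts, limits what these comparisons can show. The *Slc12a5* slope passed under all 7 alternatives and all 15 omissions of a sample (0.16 to 0.18 without 1 sample), and the ratio's r was 0.816 to 0.914 without 1 sample. The *Slc12a7* slope was -0.46 to -0.40 without 1 sample, but -0.18 with limma-voom and -1.41 per unit of log2(day + 1), and neither of these passed (adjusted p = 0.214 and 0.119). The *Slc12a7* test of any change gave an adjusted p of 0.0317 to 0.241 (edgeR) without 1 sample, the lowest without P0 replicate 3. The *Clcn3* slope was 0.042 without P0 and passed, and its test of any change passed with the DESeq2 likelihood ratio test (adjusted p = 0.0339). That test called 4224 genes for any change, against 2753 with edgeR. Over the alternatives, which did not all test the same genes, 1411 to 2238 genes rose and 1476 to 2503 fell.

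Without the filter on low counts 1 member step passed, *Slc12a5* from P4 to P8 (adjusted p = 0.0279, edgeR), and 0 to 2 passed without 1 sample. Of the steps, 8 changed sign when 1 sample was left out, and none of these 8 passed in any such fit. Their log2 differences ranged from -0.93 to 0.041 for *Slc12a2* from P0 to P4, -0.14 to 0.67 from P4 to P8 and -0.52 to 0.00056 from P14 to P21. They ranged from -0.050 to 0.82 for *Slc12a5* and -0.72 to 8.90 for *Slc12a7* from P0 to P4, from -0.055 to 0.86 for *Clcn2* from P8 to P14 and -0.15 to 1.02 from P14 to P21, and from -0.040 to 0.28 for *Clcn3* from P4 to P8. The *Slc4a8* slope was 0.032 without P0 (adjusted p = 0.417, edgeR), against -0.037 with it. The cause of these changes was not tested.

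Under a replicate block, the *Slc12a5* slope was 0.17 (adjusted p = 3.66e-06, edgeR), the *Slc12a7* slope -0.40 (adjusted p = 0.0229, edgeR), and 1723 genes rose and 1911 fell. The block turned the sign of the uncalled steps of *Slc12a7* from P0 to P4 (1.04) and of *Clcn2* from P8 to P14 (-0.23), and *Clcn5* no longer passed (-0.074, adjusted p = 0.0659, edgeR). Exon lengths of the longest coding transcript and the count ratio were added after seeing the data. The ratio was then 5.24 (counts) or 5.67 (longest transcript) at P8 and 15.4 (counts) at P14.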
